A study of Rattus norvegicus with 20 samples.

Results

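The miR-17 to miR-92 cluster is a set of microRNAs (miRNAs, short RNAs that silence the messages they pair with) cut from a single primary transcript. Of its mature products 7 were chosen by name from the 677 rat miRNAs of the array, whatever their signal. They were rno-miR-17-5p, rno-miR-18a-5p, rno-miR-19a-3p, rno-miR-19b-3p, rno-miR-20a-5p, rno-miR-20a-3p and rno-miR-92a-3p. All 7 were measured in 4 groups of 5 arrays. The groups were pachytene spermatocytes, which are germ cells in meiotic prophase, and round spermatids (the haploid cells that follow), each from male Sprague-Dawley rats given saline or cyclophosphamide, an alkylating anticancer drug. Both were given by gavage on 6 days a week for 4 weeks, the drug at 6 mg/kg. The cells were separated by size by settling at unit gravity (STA-PUT), and 100 ng of total RNA was labelled with Cy3 for 1-colour Agilent miRNA arrays. The labels give no purity for the cell fractions and no age for the rats.

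The cluster is known as a driver of proliferation in many tissues, and it is known to be expressed in male germ cells. Its products repress messages through the seed, the stretch near the 5′ end that pairs with the target, and they fall into the miR-17, miR-18, miR-19 and miR-92 seed families. Known targets of the miR-17 seed include Cdkn1a and E2f1. Duplicated clusters elsewhere in the genome hold further members of the same families, among them the miR-106b to miR-25 cluster and the X-linked miR-106a to miR-363 cluster.

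In the rat build GRCr8, RefSeq places the 6 hairpins of the cluster at chr15:98587848-98588632 on the + strand, 785 bases in all, in the order Mir17, Mir18a, Mir19a, Mir20a, Mir19b1 and Mir92a1. All 7 mature sequences were found in RefSeq by name. They are shown 5′ to 3′ with the seed (bases 2 to 8) in capitals, because the seed defines the families that are contrasted here.

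miR-17-5p: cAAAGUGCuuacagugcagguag
miR-20a-5p: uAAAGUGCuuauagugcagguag
miR-18a-5p: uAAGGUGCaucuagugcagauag
miR-19a-3p: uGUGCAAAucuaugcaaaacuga
miR-19b-3p: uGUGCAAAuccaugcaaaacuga
miR-92a-3p: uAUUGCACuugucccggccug
miR-20a-3p: aCUGCAUUacgagcacuuaca

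The 7 products hold 5 distinct seeds. miR-17-5p and miR-20a-5p share theirs and differ by C1U and C12U, counted from the 5′ end with the base of miR-17-5p first. miR-19a-3p and miR-19b-3p share theirs and differ by U11C alone. miR-18a-5p departs from miR-20a-5p inside the seed at A4G. miR-20a-3p, the opposite arm of the miR-20a hairpin, shares its seed with no other member. Mature miR-17-5p, miR-19b-3p and miR-92a-3p have an identical copy in the X-linked cluster at chrX:137342777-137343647, so for these 3 the array cannot tell the 2 loci apart.

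A further 7 miRNAs of the array share a seed with a member, and the 6 of them that were tested are compared with the cluster later, so their sequences are shown as well. The first 3 have the miR-17 seed and the others the miR-92 seed.

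miR-106b-5p: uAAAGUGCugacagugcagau
miR-20b-5p: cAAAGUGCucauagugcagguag
miR-93-5p: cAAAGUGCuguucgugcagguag
miR-25-3p: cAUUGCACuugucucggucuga
miR-363-3p: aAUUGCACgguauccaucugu
miR-32-5p: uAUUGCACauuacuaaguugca

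Values are given as log2 scaled signal: the background-subtracted spot signal of the brightest probe of a miRNA, scaled to the array's 75th percentile over spots above background on all arrays, and not allowed below a floor of 3.60. The arrays detected between 181 and 281 miRNAs each, and 217 were tested. The arrays lay on 3 slides, of which slide 3, scanned on a later date, held round spermatids only, 4 arrays in all. Between stages the list of endothelium, muscle and mesenchyme miRNAs (10 on the array, 7 tested) was higher in spermatids for 5 and lower for none in saline, and higher for 5 and lower for 1 with the drug. Its summed log2 signal lay between 9.25 and 10.57 on the pachytene arrays and between 10.96 and 11.90 on the spermatid arrays. The sum of 6 blood cell miRNAs lay between 6.63 and 7.17 on the pachytene arrays and between 7.41 and 7.91 on the spermatid arrays, with miR-144-3p detected on none of them and miR-451-5p in saline spermatids only. Of 4 spermatogonial miRNAs, 3 were lower and 1 higher in spermatids in saline, and the list's sum lay between 9.26 and 9.67 in pachytene cells and between 9.22 and 9.40 in spermatids. Of 3 tested Sertoli and other gonadal somatic miRNAs, 1 was higher and 1 lower in spermatids in each treatment. The part of these other cell types in the results that follow was not tested. The 3 germ cell markers miR-34b-5p, miR-34c-5p and miR-449a-5p were detected in every group, with summed log2 signals between 13.84 and 15.08. Of these, miR-34b-5p was higher in spermatids in both treatments (log2 differences 0.63 and 0.85) and miR-34c-5p with the drug (0.73). Of 10 tested X-linked spermatocyte miRNAs, 0 were higher in spermatids, 5 lower in saline and 6 lower with the drug. The list of 11 summed to 10.84 to 11.26 in pachytene cells and 10.44 to 10.74 in spermatids.

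Between pachytene spermatocytes and round spermatids of saline rats the products of the cluster moved apart. miR-17-5p and miR-20a-5p fell, miR-19b-3p was higher by a margin that did not survive every setting, and miR-18a-5p, miR-19a-3p, miR-92a-3p and miR-20a-3p did not pass the test. Over all 7 members 3 passed at an adjusted p of 0.05 (limma over all 217 tested miRNAs), 1 higher and 2 lower in spermatids. Among all tested miRNAs 47.9% passed, 25.8% higher and 22.1% lower, so the members' share was close to the background. The median difference was -0.12 over the members and 0.02 over all tested miRNAs. In bulk fractions like these, fewer cells of a type and less RNA per cell cannot be told apart.

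rno-miR-17-5p, the first product of the transcript, had the widest gap between stages among the 6 products above the floor, at the main scaling. In saline pachytene cells its log2 signal was 7.79, 7.90, 8.04, 7.97 and 7.85 in rats 13, 16, 25, 26 and 28. In saline spermatids it was 7.25, 6.74, 7.01, 6.94 and 7.16 in rats 15, 16, 17, 25 and 28. Every spermatid array lay below every pachytene array, a pattern of separation that 35.0% of all tested miRNAs showed. The means were 7.91 ± 0.10 and 7.02 ± 0.20 (SD, n = 5 each), a log2 difference of -0.89 ± 0.11 (SE, 95% interval -1.13 to -0.65), which is 1.85-fold lower in spermatids with a limma adjusted p of 2.96e-06.

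With cyclophosphamide the separation of miR-17-5p was similar in size. The pachytene values were 8.14 in rat 7, 8.05 in rat 15, 7.82 in each of the 2 samples labelled rat 16, and 7.73 in rat 29. The spermatid values were 7.03, 7.40, 7.04, 6.90 and 7.41 in rats 14, 15, 16, 25 and 26. Those 2 samples bear different years, and the labels do not say whether they are from 1 rat or from 2. Here too the groups did not overlap. The difference was -0.76 ± 0.11 (SE, 95% interval -1.0 to -0.52), 1.69-fold lower, with a limma adjusted p of 1.67e-05. miR-17-5p was lower in spermatids under all 18 alternative settings in both treatments. The difference ranged from -2.18 on the scale of the dmr control spots to -0.53 under normexp background correction in saline, and from -1.53 to -0.51 under the same settings with the drug. It kept its call in 17 of 18 in saline and in 18 of 18 with the drug. The exception was slide 1 alone, where 1 saline spermatid array faced 2 pachytene arrays and the difference was -0.60 with a limma adjusted p of 0.0673. On slide 2 alone, with 1 spermatid array against 3, it was -1.21.

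rno-miR-20a-5p, the other product with the miR-17 seed, moved the same way by less. Its saline pachytene values were 9.11, 9.30, 9.07, 9.14 and 9.11 in rats 13, 16, 25, 26 and 28. Its saline spermatid values were 9.04, 8.38, 8.86, 8.49 and 8.89 in rats 15, 16, 17, 25 and 28. The groups were separate, though rat 15 of the spermatids reached almost to the lowest pachytene array. The difference was -0.41 ± 0.12 (SE, 95% interval -0.67 to -0.15), 1.33-fold lower, with a limma adjusted p of 0.0109. With the drug the pachytene arrays ran from 8.91 to 9.31 and the spermatid arrays from 8.69 to 9.10, which overlap. That difference was -0.22 ± 0.12 (SE, 95% interval -0.49 to 0.04, limma adjusted p = 0.143). With slide as a block it was -0.53 in saline (limma adjusted p = 0.00202) and -0.33 with the drug (limma adjusted p = 0.0181). The drug-treated difference passed in 4 of 17 alternative settings, which were the block, the percentile over all spots (-0.43), the dmr scale (-1.0) and slide 2 alone (-0.27), where there was 1 spermatid array. The saline difference passed in 15 of 17, and under normexp it was -0.40 (limma adjusted p = 0.0596). On slide 1 the saline difference was -0.16 and on slide 2 it was -0.73. The sign stayed below 0 in all 17 alternative settings of either treatment.

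**Figure D1:**
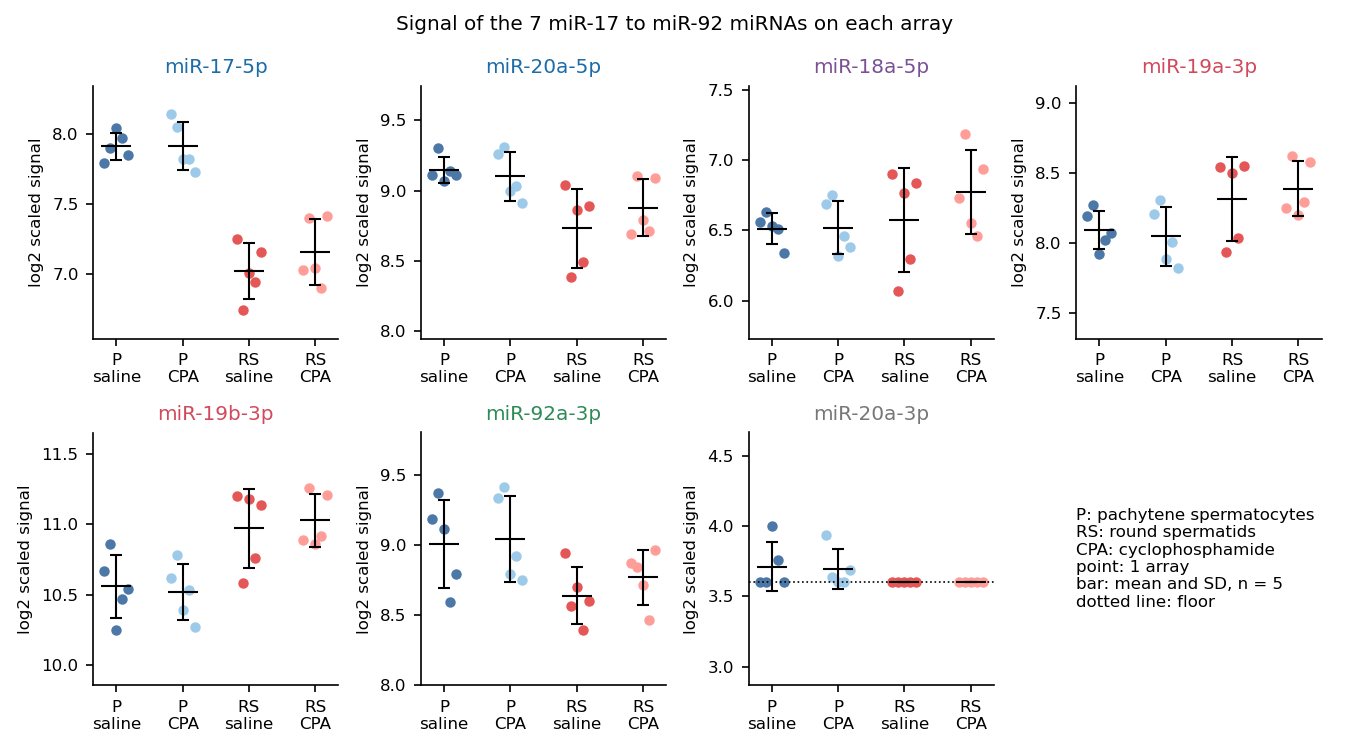
Log2 scaled signal of each of the 7 products on every array, with 1 panel per miRNA, 1 point per array and the group mean with its SD (n = 5). P is pachytene spermatocytes, RS is round spermatids and CPA is cyclophosphamide. Every panel spans the same log2 range, and miR-17-5p is the product whose spermatid arrays lie clear below the pachytene arrays in both treatments (means 7.91 and 7.02 in saline, lower under all 18 alternative settings).

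The products with the miR-19 seed leaned the other way at the main scaling. rno-miR-19b-3p read 10.67, 10.86, 10.25, 10.47 and 10.54 in saline pachytene cells of rats 13, 16, 25, 26 and 28. In saline spermatids it read 11.20, 10.58, 11.18, 10.76 and 11.14 in rats 15, 16, 17, 25 and 28. The saline groups overlapped, since spermatid rats 16 and 25 lay within the pachytene range. The difference was 0.41 ± 0.14 (SE, 95% interval 0.12 to 0.71, limma adjusted p = 0.0207) and changed sign under quantile normalization (-0.20), without scaling (-0.06) and on the scale of the dmr control spots (-0.88).

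Counted over alternative settings, that saline call for miR-19b-3p was the least stable of the calls. With slide as a block the difference was 0.26 (limma adjusted p = 0.108), and within slides 1 and 2 it was 0.43 and 0.16 (limma adjusted p = 0.188 and 0.432). The call was also lost without pachytene rat 25 (limma adjusted p = 0.0648) or without spermatid rat 15, 17 or 28 (0.0564, 0.0560 and 0.0552). It passed in its own direction in 4 of 17 alternative settings, the fewest of any call. When 1 array was left out, the drug-treated call of miR-19a-3p was lost more often.

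With cyclophosphamide miR-19b-3p read 10.62 in rat 7, 10.78 in rat 15, 10.39 and 10.53 in the 2 samples labelled rat 16, and 10.27 in rat 29 among the pachytene cells. The spermatids of rats 14, 15, 16, 25 and 26 read 10.89, 11.26, 10.86, 10.92 and 11.21. Every drug-treated spermatid array lay above every drug-treated pachytene array, as for 37.8% of all tested miRNAs in either direction. The difference was 0.51 ± 0.14 (SE, 95% interval 0.21 to 0.80, limma adjusted p = 0.00575), with the sign turned under quantile normalization (-0.08) and on the dmr scale (-0.26). It passed in 12 of 17 alternative settings, the slide block among them (0.37, limma adjusted p = 0.0105). Within slide 1 it was 0.30 (limma adjusted p = 0.182) and within slide 2 it was 0.52.

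rno-miR-19a-3p, with the same seed, ran from 7.92 to 8.27 in saline pachytene cells and from 7.94 to 8.55 in saline spermatids, a difference of 0.22 ± 0.13 (SE, 95% interval -0.06 to 0.50, limma adjusted p = 0.198). With the drug it ran from 7.82 to 8.31 and from 8.20 to 8.62. The groups overlapped in both treatments. The drug-treated difference of 0.34 ± 0.13 (SE, limma adjusted p = 0.0424) passed, but it was -0.07 without scaling and -0.43 on the dmr scale. It was lost with slide as a block (0.22, limma adjusted p = 0.115) and without any one of 6 arrays, which were pachytene rat 29 or either sample labelled rat 16, spermatid rat 15 or 26, and saline pachytene rat 28. Without each of these the limma adjusted p lay between 0.0504 and 0.112.

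rno-miR-18a-5p, a miR-17 relative with its own seed, did not separate the stages. It ran from 6.34 to 6.63 in saline pachytene cells, from 6.07 to 6.90 in saline spermatids, from 6.32 to 6.75 in drug-treated pachytene cells and from 6.46 to 7.19 in drug-treated spermatids. The spermatid arrays covered the whole pachytene range in saline. The differences were 0.06 ± 0.16 (SE, 95% interval -0.27 to 0.40, limma adjusted p = 0.795) in saline and 0.25 ± 0.16 (SE, 95% interval -0.08 to 0.59, limma adjusted p = 0.192) with the drug. The saline sign was not stable: it was above 0 in 7 of 17 alternative settings. In saline it was -0.14 after quantile normalization, -0.18 with the percentile over all spots, -0.41 without scaling and -0.10 with slide as a block. It passed below 0 within slide 2 (-0.39, limma adjusted p = 0.0271) and on the dmr scale (-1.23, limma adjusted p = 0.000976). With the drug it was -0.15 without scaling and -0.52 on the dmr scale, and above 0 in the other 15 settings.

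rno-miR-92a-3p, the last product of the transcript, read 9.18, 9.37, 9.11, 8.59 and 8.79 in saline pachytene rats 13, 16, 25, 26 and 28. It read 8.94, 8.56, 8.70, 8.39 and 8.60 in saline spermatid rats 15, 16, 17, 25 and 28. Pachytene rats 26 and 28 fell among the spermatids, so the groups overlapped. The differences were -0.37 ± 0.16 (SE, 95% interval -0.71 to -0.04, limma adjusted p = 0.0635) in saline and -0.27 ± 0.16 (SE, 95% interval -0.61 to 0.06, limma adjusted p = 0.161) with the drug. With slide as a block both passed, at -0.43 (limma adjusted p = 0.00977) and -0.41 (limma adjusted p = 0.00561). Without pachytene rat 26 or 28 or spermatid rat 15 the saline difference passed as well (limma adjusted p = 0.0207, 0.0495 and 0.0342). Both also passed with the percentile over all spots (-0.61 and -0.48), without scaling (-0.85 and -0.68) and on the dmr scale (-1.67 and -1.04). In all the saline difference passed in 6 of 17 alternative settings and the drug-treated one in 5 of 17. Its sign was below 0 in all 17 of each treatment.

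rno-miR-20a-3p, the opposite arm of the miR-20a hairpin, was close to the detection limit. It was detected on 5 of 5 arrays in each pachytene group, on 0 of 5 saline spermatid arrays and on 1 of 5 drug-treated spermatid arrays, that of rat 15. Its log2 signal was at the floor of 3.60 on every spermatid array, while the highest pachytene arrays were saline rat 25 at 4.00 and drug-treated rat 7 at 3.94. Its differences, -0.12 ± 0.07 in saline and -0.09 ± 0.07 with the drug (SE, limma adjusted p = 0.221 and 0.292), are set by that floor, and it entered the test through the pachytene groups alone. With the floor lowered to 2.60 they were -0.95 and -0.93, which that floor sets in turn, and under normexp background correction the saline value was 0.50. With Feature Extraction's total gene signal, which has a floor of its own, they were -0.75 and -0.64 (limma adjusted p = 7.42e-05 and 0.000396). The saline difference passed in 4 of 16 alternative settings and the drug-treated one in 2 of 16, each time lower in spermatids. Only 1 of its 4 probes rose above the floor, and no fold is given because its lower bound was under 1.

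Of the 8 other arms of these hairpins and their X-linked copies, 0 reached the filter for testing. miR-17-1-3p was detected on 3 saline and 4 drug-treated pachytene arrays and on 0 spermatid arrays, each time below the floor. miR-19b-1-5p was detected on 1 pachytene array, and the other 6 arms on none of the 20 arrays.

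With cyclophosphamide, then, 3 of 7 members passed between stages, 2 higher and 1 lower, against 51.2% of all tested miRNAs (29.0% higher and 22.1% lower). The median difference was -0.09 over the members and 0.05 over all tested miRNAs. A second probe for the same miRNA, dimmer than the one used, gave a difference of -0.87 in saline and -0.89 with the drug for miR-17-5p and -0.49 and -0.29 for miR-20a-5p. It gave 0.32 and 0.31 for miR-19b-3p, 0.19 and 0.35 for miR-19a-3p, and -0.40 and -0.41 for miR-92a-3p. For miR-18a-5p the 2 probes differed in sign in saline, 0.06 against -0.11.

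The scaling between arrays set the direction of several members. The median of all tested miRNAs in saline moved from 0.02 at the main scaling to -0.15 with the percentile taken over all spots, -0.37 without scaling, -1.07 on the scale of the 120 dmr control spots and 0.44 under normexp. With the drug it moved from 0.05 to -0.23 without scaling and to -0.56 on the dmr scale. Relative to that median, miR-17-5p in saline was lower by values from -0.84 to -1.11 across the 7 scalings and background corrections. With the drug the relative values ran from -0.47 under normexp to -0.97 on the dmr scale, with -0.81 at the main scaling. Over all 217 miRNAs the saline calls split into 56 higher and 48 lower at the main scaling, 37 and 77 with the percentile over all spots, 46 and 59 with Feature Extraction's total gene signal, 21 and 68 without scaling, and 3 and 160 on the dmr scale. With the drug the same split was 63 and 48 at the main scaling, 51 and 62 after quantile normalization, 37 and 77 with the percentile over all spots, 22 and 51 without scaling, and 14 and 98 on the dmr scale.

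**Figure D2:**
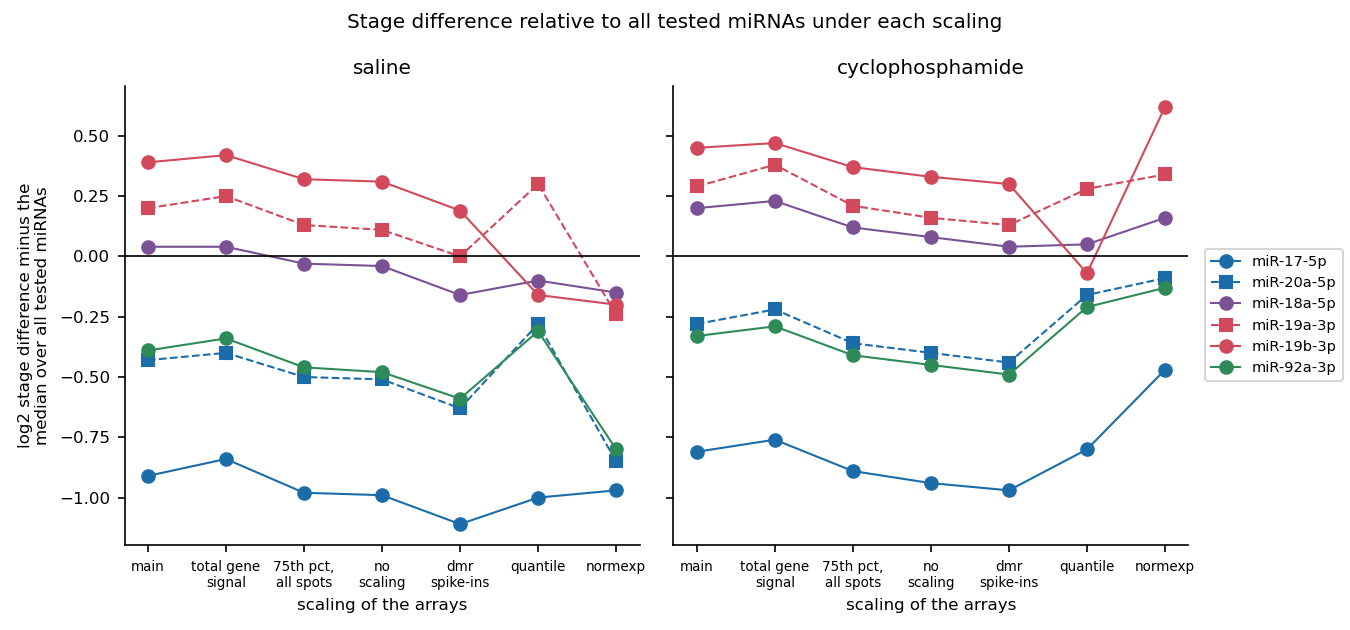
Stage difference of 6 members (log2, spermatids minus pachytene) minus the median of all tested miRNAs, for the main scaling and 6 alternatives, in saline at left and cyclophosphamide at right. miR-17-5p lies lowest under every one of them, from -0.84 to -1.11 in saline and from -0.47 to -0.97 with the drug, while miR-19b-3p crosses 0 in saline under quantile normalization and normexp and with the drug under quantile normalization.

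Whether products of different seed families changed by unequal amounts was then asked within each array. There a scaling factor cancels (quantile normalization and background correction do not). For 1 product of each family, miR-17-5p, miR-18a-5p, miR-19b-3p and miR-92a-3p, the log2 difference between 2 products on the same array was compared between groups. The levels of 2 probes say nothing about which miRNA is more abundant, so only the change of this difference is read. The array cannot tell the chr15 and X-linked copies of miR-17-5p, miR-19b-3p and miR-92a-3p apart. Every pair holds at least 1 of these, so no contrast is confined to 1 transcript. There were 6 pairs and 4 comparisons, and p-values from the exact two-sided permutation test were adjusted over the 24. The smallest p this test can give with 5 arrays against 5 is 0.00794. The miR-17 and miR-19 seeds were each read here from the product with the larger stage difference at the main scaling. For the miR-19 seed miR-19a-3p was not contrasted. It differed by 0.22 in saline and 0.34 with the drug, against 0.41 and 0.51 for miR-19b-3p. For the miR-17 seed miR-20a-5p was not contrasted, and differed between stages by -0.41 in saline and -0.22 with the drug. These last values are close to those of miR-92a-3p (-0.37 and -0.27), so the contrasts are of the products used, not of whole families.

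Of the 12 contrasts between stages 9 passed. The 6 pairs are built from the same 4 products on the same arrays, so these contrasts depend on each other and are not separate results. In each of these 9 the groups did not overlap, which is what yields the smallest p. Other pairs of miRNAs were not counted, so the 9 are not read as particular to the cluster. Of single tested miRNAs 47.9% in saline and 51.2% with the drug passed between stages (limma). The difference of miR-17-5p minus miR-19b-3p ran from -2.95 to -2.22 in saline pachytene cells and from -4.16 to -3.83 in saline spermatids. The 2 products thus moved apart by -1.30 ± 0.15 (SE, n = 5 each), a 2.46-fold change of their ratio, and by -1.26 ± 0.06 with the drug (exact permutation p = 0.00794, the smallest possible, and 0.0212 adjusted, in each). Within slides the change was -1.03 and -1.37 in saline and -1.24 and -1.42 with the drug on slides 1 and 2. Under normexp the saline change was -0.77 and did not pass (exact permutation adjusted p = 0.119).

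miR-17-5p, read from chr15 and X together, also fell against miR-18a-5p, its neighbour on the chr15 transcript. The difference ran from 1.23 to 1.50 in saline pachytene cells and from 0.24 to 0.67 in saline spermatids. It shifted by -0.95 ± 0.10 in saline and -1.01 ± 0.07 with the drug (SE, exact permutation adjusted p = 0.0212 in each), and within slides by values between -0.82 and -1.04. Under normexp the drug-treated shift was -0.63 and did not pass (exact permutation adjusted p = 0.0635).

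miR-19b-3p rose against miR-92a-3p, although their hairpins are adjacent. Their difference ran from 1.14 to 1.88 in saline pachytene cells and from 2.02 to 2.54 in saline spermatids. The shift was 0.78 ± 0.16 in saline and 0.78 ± 0.10 with the drug (SE, exact permutation adjusted p = 0.0212 in each), and within slides it lay between 0.43 and 0.89. It was 0.14 in both treatments after quantile normalization, where it no longer passed (exact permutation adjusted p = 0.873 and 0.878). Under normexp the saline shift was 0.61 and did not pass (exact permutation adjusted p = 0.0816).

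The other 3 pairs passed in 1 treatment each. miR-17-5p against miR-92a-3p shifted by -0.48 ± 0.10 with the drug (exact permutation adjusted p = 0.0212) and by -0.52 ± 0.17 in saline (0.0519, and 0.0381 without saline pachytene rat 16). Under normexp the drug-treated shift was -0.34 (exact permutation adjusted p = 0.0635). miR-18a-5p against miR-19b-3p shifted by -0.35 ± 0.10 in saline (exact permutation adjusted p = 0.0212) and by -0.25 ± 0.08 with the drug (0.0519, and 0.0381 without spermatid rat 15). The saline value was 0.06 after quantile normalization and 0.05 under normexp, and the drug-treated value 0.12 after quantile normalization. miR-18a-5p against miR-92a-3p shifted by 0.53 ± 0.11 with the drug (exact permutation adjusted p = 0.0212) and by 0.43 ± 0.16 in saline (0.0794), where it was 0.64 on slide 1 and -0.12 on slide 2. The drug-treated shift was 0.26 after quantile normalization and 0.29 under normexp, where it did not pass (exact permutation adjusted p = 0.381 and 0.59). No test compared these shifts between treatments.

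**Figure D3:**
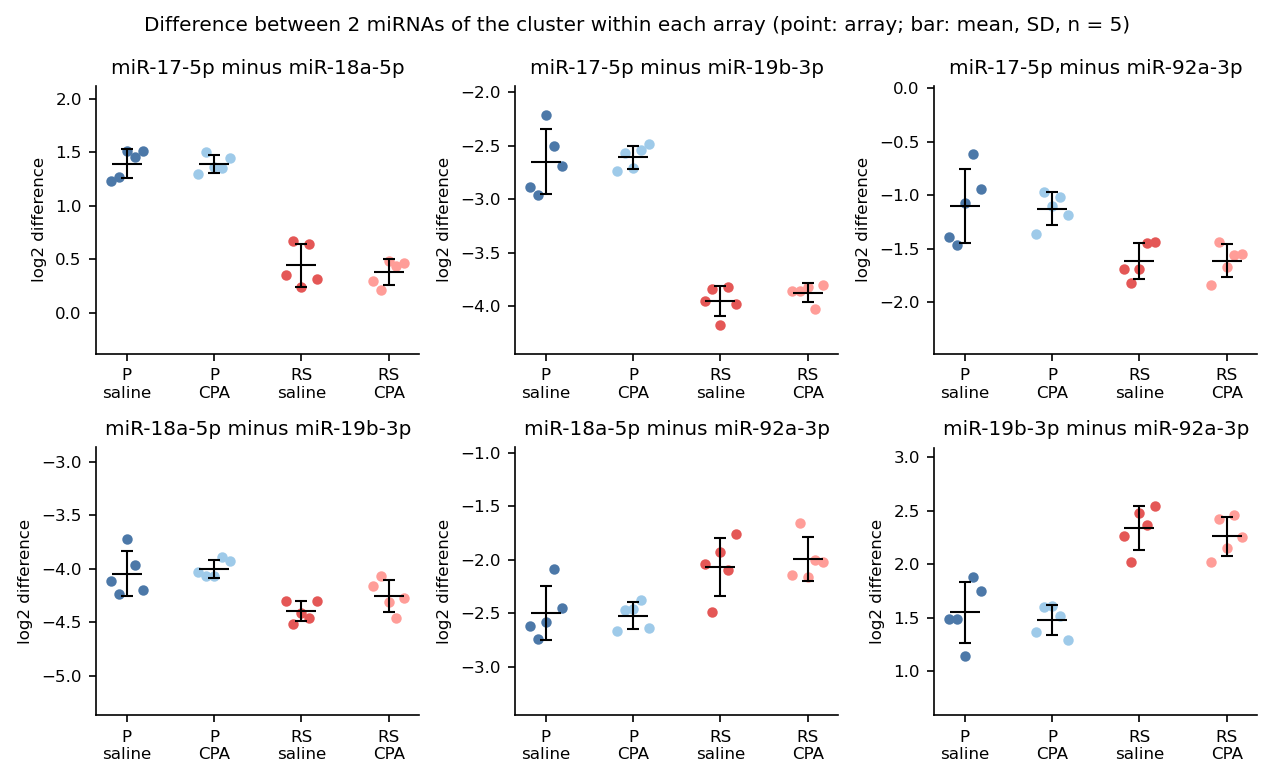
Log2 difference between 2 products of the cluster on the same array, with 1 point per array and the group mean with its SD (n = 5). The 6 pairs are among the products that stand for the seed families, 1 product each. P is pachytene spermatocytes, RS is round spermatids and CPA is cyclophosphamide. The spermatid arrays are clear of the pachytene arrays in both treatments for miR-17-5p minus miR-18a-5p, miR-17-5p minus miR-19b-3p and miR-19b-3p minus miR-92a-3p, and the saline shift of miR-18a-5p minus miR-19b-3p turns to 0.06 after quantile normalization.

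Products that share a seed did not keep a fixed ratio either, as a description with no test. miR-17-5p minus miR-20a-5p ran from -1.39 to -1.03 in saline pachytene cells and from -1.85 to -1.55 in saline spermatids, and with the drug from -1.27 to -1.13 and from -1.81 to -1.66. So miR-17-5p fell by more than miR-20a-5p on the log2 scale on these arrays, with no overlap between the stages. How many other pairs separate in this way was not counted. Of single tested miRNAs 35% in saline and 37.8% with the drug showed no overlap. miR-19a-3p minus miR-19b-3p was tighter, from -2.59 to -2.33 and from -2.73 to -2.59 in saline and from -2.51 to -2.41 and from -2.66 to -2.63 with the drug.

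Outside the cluster the miR-17 seed was lower in spermatids as well. miR-106b-5p, from the miR-106b to miR-25 cluster, fell from 7.52 ± 0.24 to 6.75 ± 0.13 in saline (SD, n = 5 each), a difference of -0.77 ± 0.10 (SE, limma adjusted p = 4.24e-06), and by -0.62 ± 0.10 on the log2 scale with the drug (limma adjusted p = 4.74e-05). miR-20b-5p, from the X-linked cluster, had differences of -0.49 ± 0.12 and -0.29 ± 0.12 (limma adjusted p = 0.00198 and 0.0463). miR-93-5p had -0.31 ± 0.12 in saline (limma adjusted p = 0.0407) and -0.11 ± 0.12 with the drug (limma adjusted p = 0.464). All 5 miRNAs with this seed thus passed with a lower value in saline and 3 of the 5 with the drug, where 22.1% of all tested miRNAs were called lower in each treatment. All 3 paralogs outside the cluster stayed below 0 in both treatments under every one of the 7 scalings and background corrections. Calls were lost under normexp for miR-106b-5p and miR-93-5p in saline (-0.37 and -0.06, limma adjusted p = 0.0636 and 0.689) and for miR-20b-5p with the drug (-0.19, limma adjusted p = 0.325). Without scaling miR-20b-5p with the drug was -0.70 (limma adjusted p = 0.0747). With slide as a block miR-93-5p passed in both (-0.43 and -0.23, limma adjusted p = 0.00153 and 0.0334). Within slide 1 the saline differences of miR-20b-5p and miR-93-5p were -0.25 and -0.15 (limma adjusted p = 0.426 and 0.578). Probes for these near-identical sequences may share signal: miR-17-5p has 2 mismatches to miR-20a-5p and to miR-20b-5p, 3 to miR-106b-5p and 4 to miR-93-5p.

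The miR-92 seed did not move as 1 group. miR-25-3p, a member of the miR-106b to miR-25 cluster, went from 7.95 ± 0.23 to 8.24 ± 0.26 in saline (SD, n = 5 each), a difference of 0.28 ± 0.12 (SE, limma adjusted p = 0.0666), and differed by 0.50 ± 0.12 with the drug (limma adjusted p = 0.00242). Its sign is opposite to that of miR-92a-3p, from which it has 3 mismatches over 21 bases, except without scaling in saline (-0.19) and on the dmr scale (-1.01 in saline and -0.27 with the drug). miR-363-3p, X-linked, was at the floor on all pachytene arrays and differed by 0.33 ± 0.09 in saline and 0.38 ± 0.09 with the drug (limma adjusted p = 0.00559 and 0.00218), values which the floor limits. In saline it was -0.27 on the dmr scale and 0.23 with slide as a block (limma adjusted p = 0.0823). It passed in neither treatment with total gene signal (limma adjusted p = 0.708 in saline and 0.477 with the drug) or without scaling (0.573 and 0.381). Under normexp it was 0.72 and 0.04 (limma adjusted p = 0.152 and 0.99). It was detected on 5 of 5 arrays in each pachytene group and on 4 of 5 in each spermatid group. miR-32-5p differed by 0.06 ± 0.15 and 0.14 ± 0.15 (limma adjusted p = 0.775 and 0.437), and miR-92b-3p was too dim to be tested.

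**Figure D4:**
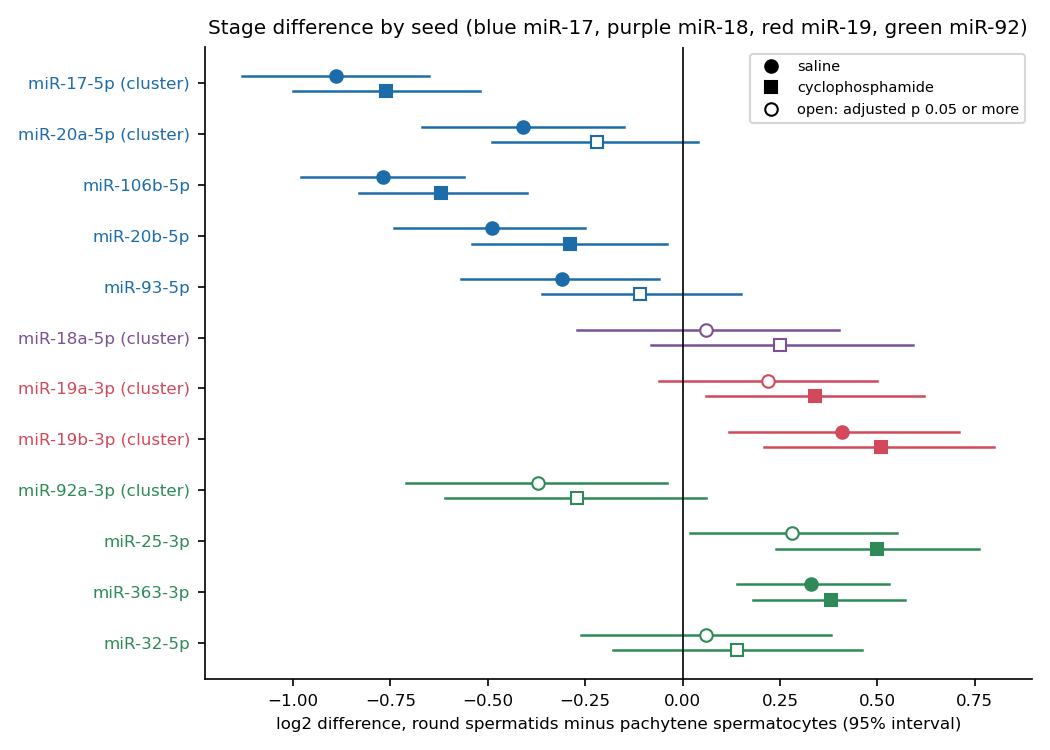
Stage difference (log2, spermatids minus pachytene, main scaling) with its 95% interval for the cluster and for tested miRNAs of the same seeds, circles for saline and squares for cyclophosphamide, filled where the limma adjusted p was under 0.05. All 5 miRNAs with the miR-17 seed lie below 0 in both treatments, whereas the miR-92 seed has miR-92a-3p below 0 and miR-25-3p, miR-363-3p and miR-32-5p above it. On the dmr scale miR-18a-5p, miR-19a-3p, miR-19b-3p, miR-25-3p and miR-32-5p turn below 0 in both treatments, and miR-363-3p does so in saline.

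Cyclophosphamide, the question of the series, left no member changed past the test in either cell type. In pachytene cells 0 of 7 members and 0% of all tested miRNAs passed (limma), with 1 of the 217 at an unadjusted p under 0.05. The members' differences (drug minus saline) lay between -0.04 and 0.03, and the 95% intervals of the 6 products above the floor between -0.34 and 0.37. In round spermatids 0 of 7 members and 0% of all tested miRNAs passed (limma), with 4 of the 217 at an unadjusted p under 0.05. The exact permutation test per member also called 0 in each cell type.

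The drug-treated and saline arrays overlapped for every member. In spermatids the differences were 0.20 ± 0.16 for miR-18a-5p (SE, 95% interval -0.14 to 0.53), 0.14 ± 0.12 for miR-20a-5p (-0.12 to 0.41) and 0.13 ± 0.11 for miR-17-5p (-0.11 to 0.37). They were 0.13 ± 0.16 for miR-92a-3p (SE, 95% interval -0.21 to 0.47), 0.08 ± 0.13 for miR-19a-3p (-0.21 to 0.36) and 0.05 ± 0.14 for miR-19b-3p (-0.24 to 0.35). The 6 limma adjusted p-values lay between 0.831 and 0.954. Within slide 1 these differences were between -0.20 and -0.08. Within slide 2 1 drug-treated spermatid array faced 1 saline array. There miR-92a-3p differed by -0.10 and the others by 0.15 to 0.39, with miR-20a-5p at 0.33. Within slide 3, with 1 drug-treated array, the differences were between 0.18 and 0.40. The fit assumes that each lone array varies like the other groups.

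The drug effect was also compared between the cell types. The interaction term of the 6 products above the floor lay between 0.10 and 0.19, and 0 of 7 members and 0% of all tested miRNAs passed (limma adjusted p = 1 for each member), with 1 of the 217 at an unadjusted p under 0.05. On slide 2 alone the term for miR-20a-5p was 0.46, which rests on the same lone spermatid arrays, and on slide 1 it was -0.26. The 12 within-array contrasts between drug and saline were at most 0.14 in size, with exact permutation adjusted p-values of 0.249 or more.

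Pooled over the 4 groups, the arrays differed within a group in a way most products shared. This held less in saline pachytene cells, where miR-17-5p was highest (8.04) and miR-19b-3p lowest (10.25) in rat 25. Over the 20 arrays, the deviations of 6 members from their group means had a median Pearson r of 0.84 over the 15 pairs, from 0.57 for miR-17-5p with miR-92a-3p to 0.97 for miR-19a-3p with miR-19b-3p. For all 23005 pairs of 215 tested miRNAs the median was 0.00, and the 5th and 95th percentiles were -0.52 and 0.69. These are descriptions: every pair shares its arrays and their scaling factor, and no p is given. In spermatids the arrays of rat 15 in either treatment, of saline rats 17 and 28 and of drug-treated rat 26 tended to be high, and the other 5 low.

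**Figure D5:**
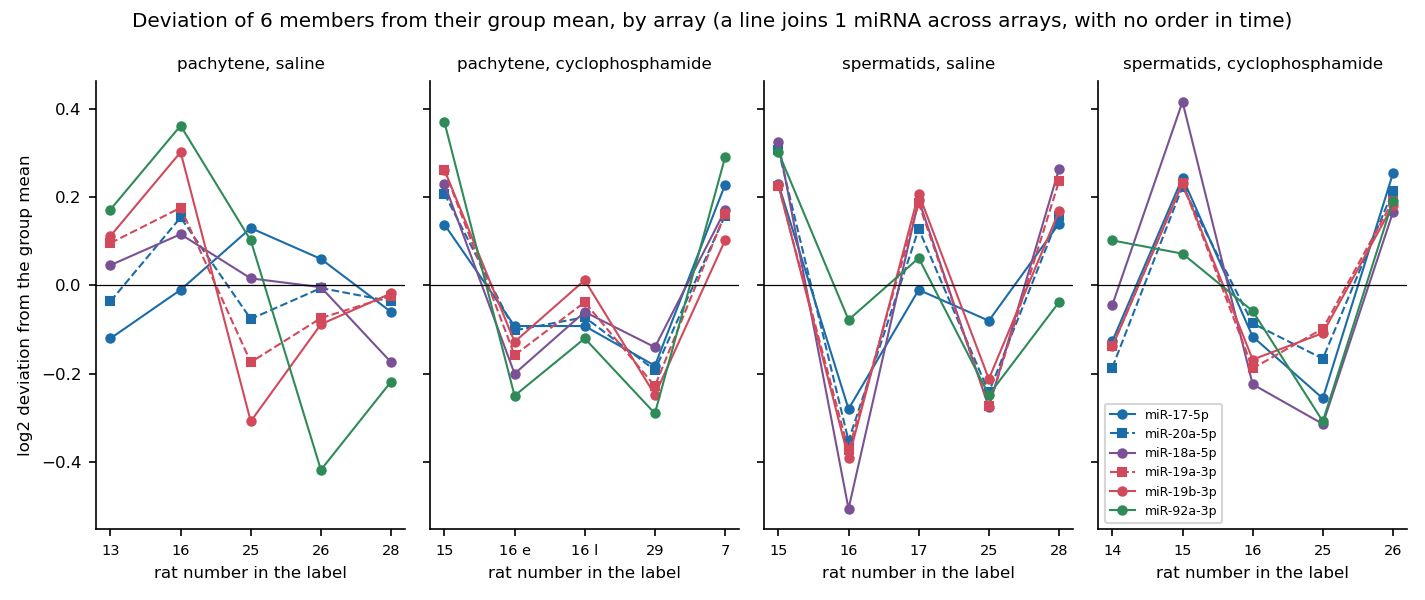
Deviation of 6 members from their group mean on each array (log2), by the rat number in the label, with 1 panel per group. 16 e and 16 l are the 2 samples labelled rat 16 in the drug-treated pachytene group, with the earlier and the later year in the label. Pooled over the 4 groups the members rise and fall together from array to array, with a median r of 0.84 over the 15 pairs. They do so less in saline pachytene cells, where miR-17-5p is highest (8.04) and miR-19b-3p lowest (10.25) in rat 25. In that group miR-92a-3p departs furthest from the others.

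By the same measure the miRNAs outside the cluster most like miR-17-5p were miR-20b-5p (r = 0.89), miR-146b-5p (0.88) and miR-93-5p (0.85). Those most like miR-18a-5p were miR-93-5p (r = 0.94), miR-20b-5p (0.93) and miR-301a-3p (0.91). For miR-19b-3p they were the germ cell markers miR-449a-5p (r = 0.96), miR-34b-5p (0.94) and miR-34c-5p (0.93). For miR-92a-3p they were miR-375-3p (r = 0.89), miR-25-3p (0.83) and miR-15b-5p (0.80).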

How the data were processed

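The 20 arrays were read from the deposited Agilent scanner files. Per the file headers and the submitters' processing notes, the authors extracted them with Feature Extraction 11.5.1.1, in 1 colour, and each spot's intensity is background-subtracted and not scaled between arrays. The array design is annotated on rn4, so only miRNA names were carried to GRCr8. The authors' deposited log2 table was used as an alternative for miR-17-5p, the 1 member matched by exact name. Its scaling is not given in the sources used here.

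Control spots and outlier spots were left out. Signals were scaled to the 75th percentile over 2176 spots above background on all arrays, averaged over the spots of a probe, raised to 12.09 where lower (a log2 floor of 3.60) and logged. The brightest probe stood for a miRNA. A miRNA was tested where all arrays of a group detected it, which left 217 of 677. limma 3.58.1 (R 4.3.3) fitted 1 mean per group over all 20 arrays (16 residual degrees of freedom) with Benjamini-Hochberg adjustment, and no replicate number was used as a pair. The fit was tested on simulated data. Within-array contrasts were tested by exact permutation over 252 splits. No spot was saturated (0 on each array). Precision is limited by having 5 arrays a group. The spermatid array of drug-treated rat 14 is deposited rounded to 3 significant digits.

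All members were named. Other miRNAs came from lists of paralogs, shared seeds and markers, and the 3 most alike per seed family by correlation. The members and lists were chosen with earlier results of these data known. The labels give a rat number per sample but not whether all cell fractions are from separate rats, so p-values measure the spread between these samples.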

Additional observations from a re-analysis of the deposited data

Results flagged for a closer look

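In drug-treated pachytene cells the array of rat 7 stood apart for miR-20a-3p, at 3.94 against 3.60 to 3.69 on the other 4 arrays. Its gap to the nearest array was 0.733 of the group's range, above Dixon's critical value of 0.71 for 5 arrays. It was the single case among 26 combinations of member and group, and chance flags about 1 in 20. All of these values are close to the floor of 3.60.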

How the results depend on the processing

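Counts of members called between stages in saline (3) became 7 on the dmr scale, 1 under normexp and 0 within slide 1. With the drug (3) the count became 1 after quantile normalization. Within slide 2 miR-20a-5p alone made the count 1 for the drug in spermatids and 1 for the interaction, where each spermatid group is 1 array, assumed to vary like the other groups. The contrasts past the threshold (9) became 4 under normexp. In saline miR-18a-5p was above 0 in 7 of 17 settings and lowest at -1.23 (dmr), with -0.39 on slide 2. Signs also turned in saline for miR-19a-3p (-1.07 dmr, -0.26 without scaling, -0.07 slide 2, -0.02 percentile over all spots) and miR-19b-3p (-0.20 quantile, -0.06 without scaling, -0.88 dmr). With the drug they turned for miR-18a-5p (-0.15 without scaling, -0.52 dmr), miR-19a-3p (-0.07 without scaling, -0.43 dmr) and miR-19b-3p (-0.08 quantile, -0.26 dmr). They also turned for the saline contrast of miR-18a-5p with miR-19b-3p (0.06 quantile, 0.05 normexp) and the drug-treated one (0.12 quantile). In saline miR-20a-3p was 0.50 under normexp, and the contrast of miR-18a-5p with miR-92a-3p was -0.12 on slide 2. The cause was not tested. Leaving out 1 array at a time gave 2 to 4 members in saline, 2 to 3 with the drug, 0 for each drug comparison and 9 to 10 contrasts.

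With rat number as a replicate block the counts were 3 and 3 between stages and 0 for the drug (estimated correlation 0.062). Of 4 same-numbered pairs 2 correlated above 0.1 (from -0.289 to 0.167). The 2 drug-treated pachytene samples labelled rat 16, not among these pairs, correlated 0.206 and -0.109 with the drug-treated spermatids of rat 16, so numbers were not taken to pair samples. Over all 217 miRNAs the stage calls (104 in saline, 111 with the drug) became 30 and 39 under normexp, 54 and 70 within slide 1, 163 on the dmr scale in saline and 73 without scaling with the drug. Drug calls in spermatids (0) became 28 within slide 2 and 1 within slide 3, and interaction calls (0) became 25 within slide 2, with the same limit of 1 array. Normexp used the median signal and, like the arrays of the earlier scan alone, was chosen after seeing the data. The authors' table was not run for counts or contrasts, nor the exact test for the interaction. Dim products, above all miR-20a-3p, are limited by the floor.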
